A study of Mus musculus with 12 samples.

Results

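The comparison described here asked for which genes the effect of the Bmpr1a conditional knockout (cKO) differed between the proximal and the distal segment of the mouse small intestine. It used all 12 of the 12 libraries: 3 of WT proximal, 3 of WT distal, 3 of cKO proximal and 3 of cKO distal small intestine. For each of 17175 genes the difference between cKO and WT in the proximal segment was subtracted from the difference between cKO and WT in the distal segment, on the log2 scale, and this value is called the interaction. A positive interaction means that the gene stood higher in distal cKO, relative to distal WT, than the proximal pair of groups would give. A negative interaction means that it stood lower. Libraries of one genotype and number were treated as the 6 pairs that join the segments. The labels name the tissue, the genotype and the segment, and do not give the Cre line or promoter behind the deletion, nor the age, sex or strain of the mice. They do not state either whether each library of a group is from its own animal. The p-values therefore measure only the spread among these samples, part of which may be technical. The series description gives the purpose as relating BMP signals received by the epithelium to the length of villi along the gut.

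Bone morphogenetic proteins (BMPs) are ligands made largely by cells beneath the epithelium, and BMPR1A is a type I receptor through which they switch on SMAD transcription factors and genes such as the Id family. In the intestine the signal is stronger on the villus than in the crypt, restrains stem cells, and shapes what enterocytes and hormone cells express as they move up the villus. Enterocytes also differ along the gut: proximal ones carry much of the sugar, fat and iron uptake, distal ones bile acid and other late uptake, and organised lymphoid tissue becomes more frequent towards the distal end.

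Depth lay between 11242024 and 17722756 recovered reads per library. Mitochondrially encoded genes took between 9.75% and 37.7% of reads, with WT libraries at 17.4% or above and 5 of the 6 cKO libraries at 14.8% or below. In CPM, the reads of a gene scaled to a common library total, the epithelial marker list summed to 13883 and 15143 in WT distal 1 and 2 and to between 18319 and 23439 in the other 10 libraries. Y-linked genes had 0 reads in cKO proximal 1 and in cKO distal 1, against at least 1251 in each of the other 10 libraries. Both libraries of cKO pair 1 were thus alike in this and unlike those of cKO pairs 2 and 3. All WT libraries held Y-linked reads, and the part of this difference in the interactions was not tested. Gene positions below are in mm10 with GENCODE M21 gene models. Values are scaled read counts, given for libraries 1, 2 and 3 of a group in that order.

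Bmpr1a itself (chromosome 14, 34410734 to 34503341, minus strand) showed no detectable interaction. Its scaled counts were 1029, 772 and 1019 in WT proximal, 438, 527 and 631 in WT distal, 911, 833 and 1087 in cKO proximal and 511, 668 and 486 in cKO distal libraries. Proximal levels lay above distal ones in both genotypes, and the genotypes overlapped in each segment (interaction 0.05, SE 0.25, limma adjusted p = 0.946). The count is per gene and not per exon, and reads from exons that were not deleted may enter it. It therefore cannot serve as a check of the deletion or of the labels. Where the reads in cKO came from was not tested.

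Genes induced by BMP that fell in cKO included Id3, which encodes an inhibitor of basic helix-loop-helix transcription factors, and its distal fall was smaller than its proximal one. Id3 (chromosome 4, 136143497 to 136145755, plus strand) stood at 1678, 1565 and 1262 in WT proximal, 1206, 1398 and 1425 in WT distal, 116, 155 and 137 in cKO proximal and 253, 279 and 233 in cKO distal libraries. All 6 cKO values lay below all 6 WT values, and within cKO the 3 distal values lay above the 3 proximal ones. Id3 fell in both segments, with log2 fold changes of -3.45 proximally and -2.39 distally (adjusted p = 1.46e-07 and 4.44e-06), an interaction of 1.06 (SE 0.22, adjusted p = 0.0262). Id1, a close relative, had 1569, 1583 and 1408 in WT proximal, 972, 1115 and 1649.7 in WT distal, 113, 156 and 112 in cKO proximal and 201, 152 and 232 in cKO distal libraries. Its interaction of 0.93 did not pass (SE 0.30, adjusted p = 0.116). The inhibitory SMAD gene Smad6 had an interaction of 1.67 that did not pass either (SE 0.57, adjusted p = 0.143), with values of 479, 305 and 268 in WT proximal, 214, 181 and 312 in WT distal, 10.1, 5.30 and 3.73 in cKO proximal and 9.54, 10.8 and 25.5 in cKO distal libraries. Both genes were lower in every cKO library than in any WT library of the same segment. The BMP-induced list had 14 measured genes. In the proximal segment 7 of them fell and 1 rose, in the distal segment 9 fell and 2 rose, and 1, Id3, passed for the interaction, where 0.734% of all genes passed in that direction. The median interaction of the list was 0.57, or 0.11 when scaled to epithelial genes, against -0.003 over all genes. The Id3 call ended without WT proximal 1 or 2, WT distal 2, cKO proximal 1 or 3, or cKO distal 1 or 2 (highest adjusted p = 0.0807), when libraries were scaled to epithelial genes (adjusted p = 0.246), and with no replicate block (0.0689).

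The start of Smad6 is printed here because the palindrome GTCTAGAC, a known SMAD binding motif, lies within it. The window runs from 250 bases before to 50 after the RefSeq start (GRCm38.p6, chr9:64022010-64022309, minus strand), with the match in capitals.
Smad6: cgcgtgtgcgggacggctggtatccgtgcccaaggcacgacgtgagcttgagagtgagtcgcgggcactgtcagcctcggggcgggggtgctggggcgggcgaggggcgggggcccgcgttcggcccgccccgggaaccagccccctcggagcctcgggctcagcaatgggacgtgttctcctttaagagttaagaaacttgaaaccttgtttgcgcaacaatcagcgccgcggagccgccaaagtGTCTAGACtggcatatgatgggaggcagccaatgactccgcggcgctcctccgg
The motif begins 4 bases before the start. Of 12782 tested genes with such a window, 0.219% hold this palindrome.

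Over all genes, 434 of 17175 passed for the interaction (2.53%, limma with Benjamini-Hochberg adjusted p under 0.05), 126 of them positive (0.734%) and 308 negative (1.79%). Of the 434, 426 had an interaction of at least 2-fold. In the same fit 1453 genes passed between cKO and WT in the proximal segment (8.46%) and 4321 in the distal segment (25.2%). Of these, 738 rose and 715 fell in proximal cKO, and 2291 rose and 2030 fell in distal cKO. Between segments, 5046 genes passed in WT (29.4%) and 2561 in cKO (14.9%). The negative interactions were mostly genes that fell in distal cKO: 207 of 308 fell there and did not pass in the proximal segment, 56 fell in both, and 28 rose in the proximal segment and did not pass in the distal one. Of the 126 positive ones, 80 rose in distal cKO alone by the same reading and 31 fell in proximal cKO alone. Read along the gut, 222 of the 308 negative genes were higher distally in WT and did not differ detectably between segments in cKO. Among the 126 positive genes, 55 were lower distally in both genotypes and 41 in WT alone.

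**Figure D1:**
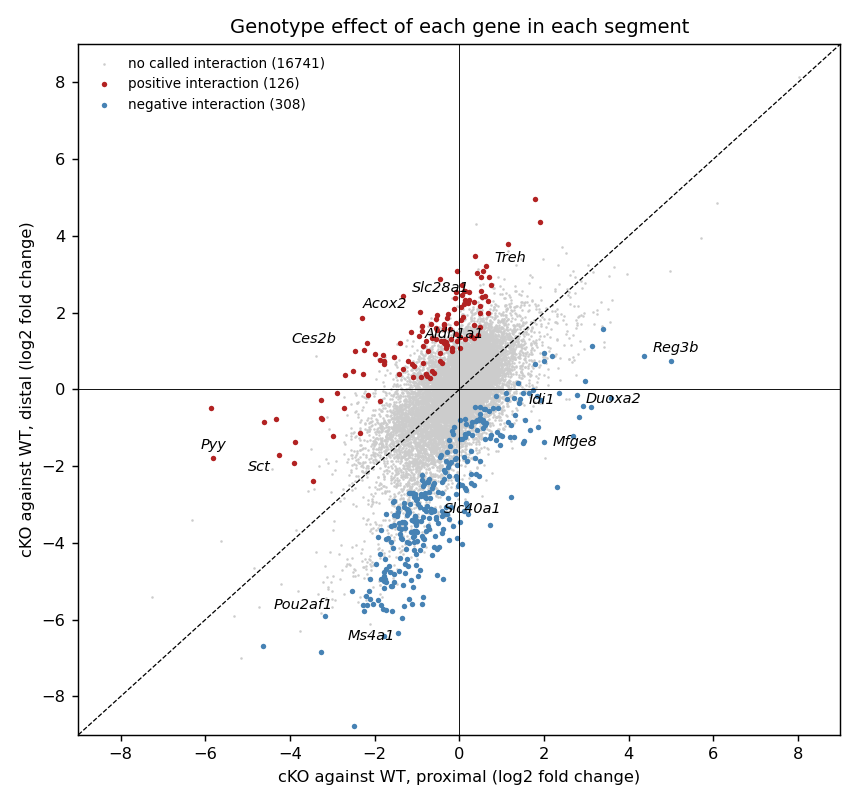
Each point is 1 of 17175 genes, with the log2 fold change of cKO against WT in the proximal segment on the x axis and in the distal segment on the y axis; red points are the 126 positive and blue points the 308 negative called interactions. Points on the dashed line have the same genotype effect in both segments, and the blue points lie mostly below 0 on the y axis, under the dashed line.

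How many genes passed depended on single libraries. All 434 kept the sign of their interaction in each of the 12 fits that left out 1 library. They were picked for their interaction in these same libraries, so a kept sign is little evidence of a stable direction. Of the 434, 67 passed in all 12 fits (22 positive and 45 negative). The count was 164 and 151 without WT proximal 1 and 2, 107 and 952 with WT distal 2 or 3 left out, 95, 229 and 99 with cKO proximal 1, 2 or 3 left out, and 118 and 159 with cKO distal 1 or 2 left out. Without WT distal 3, 51.9% of the calls were positive, against 29% with all libraries. Scaling to epithelial genes moved the median interaction of all genes from -0.003 to -0.495 and left 53 of 588 calls positive (9.01%). Of the 434 genes, 162 also passed with the pairs as fixed terms, in edgeR with fixed pairs, with voom weights and in DESeq2 (67 positive and 95 negative), and 56 of these were among the 67.

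Genes of absorptive enterocytes were among the positive interactions. In the bulk tissue, fewer cells of a type and less RNA per cell cannot be told apart. Of 44 genes typical of proximal enterocytes, 13 had a positive and 1 a negative called interaction, with a median of 1.36. All gene lists here were written with earlier results of these data known, so their counts are a description and not a test. Distal WT values enter the interaction with a minus sign. A list chosen as low there would lean positive, and one chosen as high there negative. Of the epithelium list, which is not the set used for scaling, 11 of 12 members had an interaction above 0 (median 0.55). Scaling to epithelial genes used Epcam, Cdh1, Krt8, Krt18, Krt19, Cldn7, Ezr and Vil1. With this scaling the proximal enterocyte list had 8 positive calls and a median of 0.85. With no replicate block it had 4 positive calls. Of these 44 genes, 41 were lower in the distal than in the proximal segment in WT and 29 in cKO, by medians of -3 and -1.55 on the log2 scale, and in the distal segment 34 rose in cKO and 2 fell. In the proximal segment 2 rose and 2 fell. The summed level of the list was 4995, 6631 and 11098 CPM in WT distal libraries, 22104, 15617 and 14638 in cKO distal, and 34324 to 40114 in the proximal libraries of both genotypes.

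Gstm6 (chromosome 3, 107938847 to 107943749, minus strand), a glutathione transferase, stood at 2118, 2129 and 1858 in WT proximal, 62.1, 75 and 105 in WT distal, 2121, 2705 and 1900.4 in cKO proximal and 527, 314 and 383 in cKO distal libraries. The proximal groups overlapped, and the distal cKO values all lay above the distal WT values. Gstm6 rose by 2.32 in the distal segment (adjusted p = 2.34e-05) beside 0.13 in the proximal one, an interaction of 2.19 (SE 0.30, adjusted p = 0.00516). Aldh1a1 (chromosome 19, 20492715 to 20643465, plus strand), the retinaldehyde dehydrogenase that makes retinoic acid, had the same pattern at a higher level, with 13188, 11931 and 11782 in WT proximal, 1432, 1772 and 1898 in WT distal, 13081, 15068 and 11044 in cKO proximal and 7151, 6233 and 5477 in cKO distal libraries. Distal WT was the lowest group, at 1701 ± 241 (SD, n = 3) against 6287 ± 838 in distal cKO (interaction 1.81, SE 0.25, adjusted p = 0.00553). For Gstm1 (2.41, SE 0.35, adjusted p = 0.00694) the distal rise was 1.52 and the proximal value -0.89, which did not pass. Mu class glutathione transferase genes are near copies of each other, and how reads were divided among Gstm1, Gstm6 and their relatives is uncertain. Of the 13 positive members, 12 rose in distal cKO. The other, Trpv6, an epithelial calcium channel named after its values were seen, fell in proximal cKO (-4.61, adjusted p = 0.00131) with an interaction of 3.75.

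A few sugar, peptide and fat handling genes had the same pattern. Treh (chromosome 9, 44673233 to 44686305, plus strand), the brush border enzyme that splits trehalose, stood at 15227, 7183 and 8632 in WT proximal, 773, 804 and 2666 in WT distal, 14999, 15713 and 14846 in cKO proximal and 16745, 6494 and 12443 in cKO distal libraries. Its distal WT values lay below all others, and it rose by 3.22 in distal cKO (adjusted p = 0.000235; interaction 2.59, SE 0.59, adjusted p = 0.0343). Fabp1 (chromosome 6, 71199827 to 71205023, plus strand), which carries fatty acids within the cell, went from 1696 ± 152 to 8805 ± 3545 in the distal segment, and stood at 32122 ± 1524 and 51672 ± 8828 in proximal WT and cKO (interaction 1.63, SE 0.36, adjusted p = 0.0328). Further called members were the hexose transporter gene Slc2a7 (1.69), the gluconeogenic enzyme gene Fbp1 (1.45) and Apoc2 (1.77), which encodes the cofactor of lipoprotein lipase. Each rose in distal cKO and did not pass in the proximal segment. In all, 3 of 28 sugar and peptide genes and 2 of 29 fat absorption genes had a positive interaction and 0 a negative one, with medians of 1.07 and 0.77. These medians were 0.56 and 0.25 when scaled to epithelial genes, with 3 and 1 positive calls.

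Genes of fatty acid breakdown gave 2 positive interactions among 26 measured. Acaa1b (chromosome 9, 119148023 to 119157093, minus strand), a peroxisomal thiolase, had 1699, 1082 and 1018 in WT proximal, 122, 137 and 93.8 in WT distal, 982, 895 and 985 in cKO proximal and 427, 394 and 322 in cKO distal libraries. Distal cKO lay between distal WT and the proximal groups, with no overlap (interaction 2.07, SE 0.27, adjusted p = 0.00384). Pdk4, the kinase that shuts off pyruvate dehydrogenase, rose from 20.8 ± 1.21 to 111 ± 52.6 in the distal segment, while the proximal groups overlapped (interaction 2.05, SE 0.34, adjusted p = 0.0102). The list median of 0.46 turned to -0.06 when scaled to epithelial genes, a scaling that also ended the call of Pdk4 (adjusted p = 0.0609), as it did for Fbp1 (0.141) and Apoc2 (0.0544). Cholesterol synthesis genes rose in both segments (11 and 15 of 25), and 1 of them had a called interaction. This was Idi1, an isomerase of the pathway, at 123, 120.1 and 157 in WT proximal, 347, 424 and 451 in WT distal, 326, 448 and 288 in cKO proximal and 486, 483 and 410.4 in cKO distal libraries. Proximal WT was the one low group, and Idi1 rose in proximal cKO alone (1.39, against 0.18 distally; interaction -1.21, SE 0.25, adjusted p = 0.0269).

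Slc40a1 was the 1 proximal enterocyte gene with a negative call, among 4 of the 44 with an interaction below 0. It encodes ferroportin, the exporter by which iron leaves the enterocyte (chromosome 1, 45908068 to 45926523, minus strand), and stood at 12229.8, 11573 and 12990.3 in WT proximal, 527, 621 and 585 in WT distal, 6418, 10774 and 8262 in cKO proximal and 71, 71.4 and 36.2 in cKO distal libraries. Distal values were far below proximal ones in both genotypes, and distal cKO lay below distal WT without overlap. The gene fell in distal cKO (-3.32, adjusted p = 4.44e-06), against -0.56 in the proximal segment, which did not pass (interaction -2.76, SE 0.32, adjusted p = 0.00326).

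Among the genes named for size, which had a mean of at least 2 log2 CPM, the largest positive interaction was that of Slc28a1 (chromosome 7, 81114799 to 81170416, plus strand), a sodium-coupled transporter of pyrimidine nucleosides. Its values were 2898, 1534 and 1638 in WT proximal, 84, 56.5 and 222 in WT distal, 820.0, 976 and 579.7 in cKO proximal and 599.7, 374 and 776 in cKO distal libraries. Although on the distal enterocyte list, in WT it was lower distally (log2 difference -4.24, adjusted p = 3.51e-06). In cKO the segments overlapped (-0.47, adjusted p = 0.474), and the interaction was 3.76 (SE 0.56, adjusted p = 0.00694). Acox2 (chromosome 14, 8225511 to 8259353, minus strand), a peroxisomal oxidase of branched fatty acids and bile acid precursors, turned its gradient around. It stood at 616, 317 and 571 in WT proximal, 112, 116 and 178 in WT distal, 212, 193 and 392 in cKO proximal and 509, 472 and 639 in cKO distal libraries, so WT was higher proximally (-1.85, adjusted p = 0.00017) and cKO higher distally (1.08, adjusted p = 0.0141). The interaction was 2.94 (SE 0.38, adjusted p = 0.00384).

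In other positive genes the proximal segment carried the change. Ces2b (chromosome 8, 104831572 to 104840093, plus strand), a carboxylesterase, fell in proximal cKO from 2326 ± 1263 to 389.5 ± 93.5, and stood at 74.8 ± 35.1 in distal WT and 152 ± 73.1 in distal cKO (interaction 3.47, SE 0.53, adjusted p = 0.00694). Carboxylesterase genes lie in a cluster of near copies, so its reads are uncertain. Osr2, a zinc finger transcription factor of the distal enterocyte list, had 65.2, 49.4 and 41.9 in WT proximal, 1119, 1304 and 1518 in WT distal, 18.2, 12.7 and 3.73 in cKO proximal and 2064, 2161 and 1122 in cKO distal libraries. The distal groups overlapped while proximal cKO lay below proximal WT, and Osr2 fell there (-2.28; interaction 2.67, SE 0.51, adjusted p = 0.0187). Enpp7 (chromosome 11, 118988188 to 118993221, plus strand), the alkaline sphingomyelinase that digests dietary sphingomyelin, fell in proximal cKO from 590.1 ± 493 to 101 ± 24.5. In the distal segment it overlapped, at 7180.5 ± 4125 in WT and 14872 ± 7588 in cKO (interaction 3.26, SE 0.72, adjusted p = 0.0331). Lrp12, of the low density lipoprotein receptor family, likewise fell in proximal cKO and did not pass in the distal segment (interaction 2.51). The lipid hydrolase gene Aadac (2.52), the vitamin C transporter gene Slc23a1 (3.34) and Bbox1 (2.64), which makes carnitine, rose in distal cKO. None of them passed in the proximal segment. The proximal values of Bbox1 still did not overlap, at 474, 550 and 580 in WT and 1044, 1063 and 1460 in cKO (1.14, limma adjusted p = 0.165). Its distal WT values came from 24 reads in all. Of 36 distal enterocyte genes, Osr2 and Slc28a1 were the 2 with a called interaction, both positive, beside a list median of 0.94, or 0.42 when scaled to epithelial genes.

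**Figure D2:**
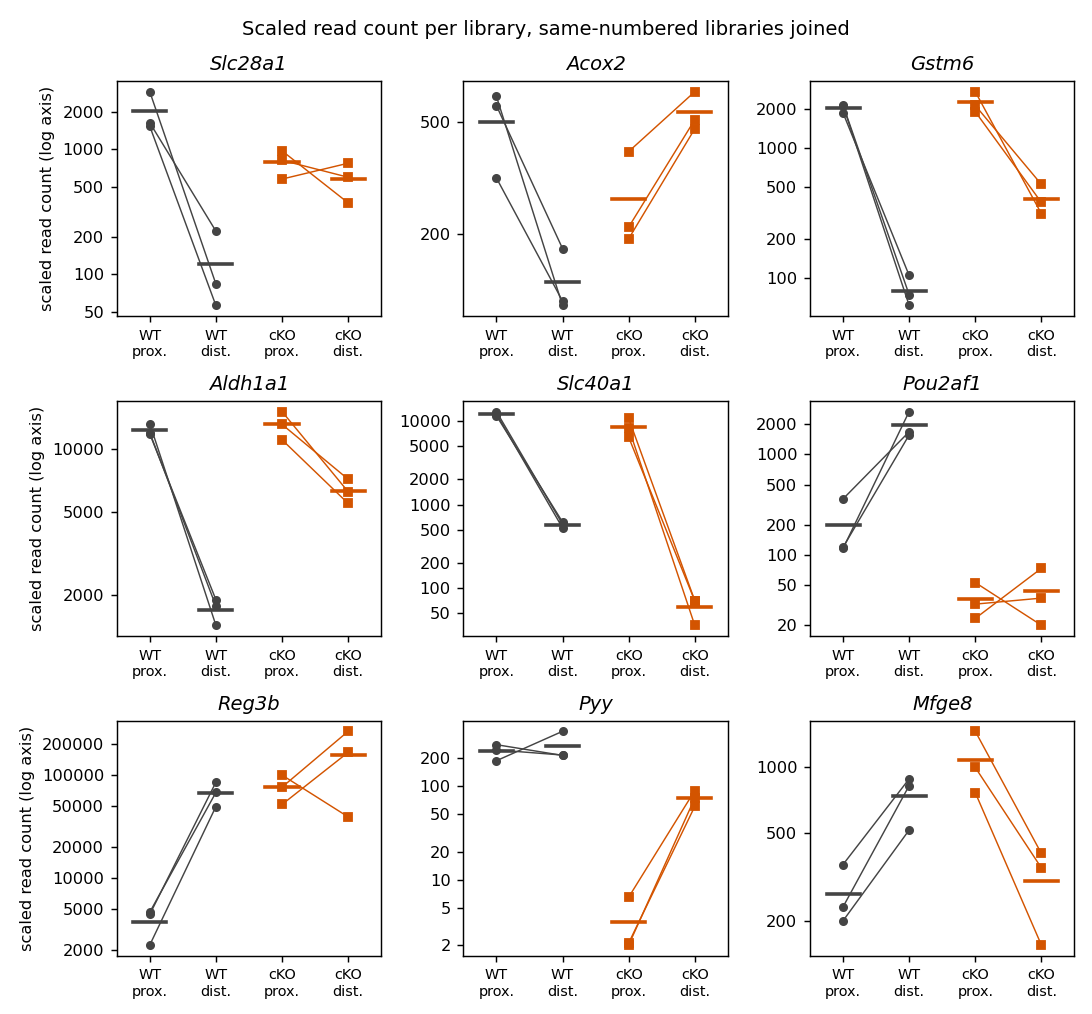
Scaled read count of 9 genes (log axes) in each library, with lines joining the proximal and distal library of one genotype and number and thick bars at the group mean; WT in grey circles, cKO in orange squares. The WT and cKO lines of a gene run at different slopes: for Acox2 they cross, from 501 to 135 on average in WT and from 266 to 540 in cKO.

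The calls of Gstm6, Aldh1a1, Gstm1, Acaa1b, Pdk4, Slc40a1, Slc28a1, Acox2 and Ces2b held in all 12 fits that left out 1 library (highest adjusted p = 0.0382). The others were less stable. Treh, Fabp1, Slc2a7, Fbp1, Bbox1, Slc23a1, Enpp7 and Idi1 kept the call in 2 to 4 of the 12, Lrp12 in 5, Apoc2 in 7, Aadac in 8 and Osr2 in 9. Those of the first 8 each ended without WT proximal 1, cKO proximal 1 or 3 or cKO distal 1, and none ended without WT distal 3. Lrp12 ended without WT distal 1 or 2, cKO proximal 2 or 3 or any cKO distal library, and Apoc2 without WT distal 2, cKO distal 1 or any cKO proximal library. Aadac ended without WT distal 2, cKO proximal 1 or 3 or cKO distal 1, and Osr2 without WT distal 2 or cKO distal 1 or 2. The highest adjusted p of all these was 0.126 (Treh without WT distal 2). With voom weights the calls of Bbox1 (adjusted p = 0.0894), Enpp7 (0.0591), Treh (0.0553) and Lrp12 (0.0503) ended, and that of Bbox1 also ended when scaled to epithelial genes (0.0856). With no replicate block Treh, Fabp1, Slc2a7, Fbp1, Bbox1, Slc23a1, Enpp7, Idi1, Lrp12, Apoc2 and Osr2 did not pass (adjusted p between 0.0649 and 0.0936). The number of proximal enterocyte genes with a positive call ran from 4 (without WT proximal 1, cKO proximal 1 or cKO distal 1) to 24 (without WT distal 3), while Slc40a1 stayed the 1 negative member.

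The starts of 3 of these genes are printed because each holds the HNF4 motif CAAAGTC, the letters bound by a nuclear receptor of enterocytes. Among the named genes with a window, H2-Ob and Mcm2, both with a negative interaction, hold it too and are not printed. The windows run from 250 bases before to 50 after the RefSeq start (GRCm38.p6), read 5′ to 3′ along the gene, and capitals mark CAAAGTC or its reverse complement and, in Enpp7, also the GATA motif AGATAA. Treh lies at chr9:44672983-44673282, Aldh1a1 at chr19:20492333-20492632 and Enpp7 at chr11:118987931-118988230, all on the plus strand. The Aldh1a1 window ends before the gene model start given above, so the RefSeq start used for it is a different, earlier one.
Treh: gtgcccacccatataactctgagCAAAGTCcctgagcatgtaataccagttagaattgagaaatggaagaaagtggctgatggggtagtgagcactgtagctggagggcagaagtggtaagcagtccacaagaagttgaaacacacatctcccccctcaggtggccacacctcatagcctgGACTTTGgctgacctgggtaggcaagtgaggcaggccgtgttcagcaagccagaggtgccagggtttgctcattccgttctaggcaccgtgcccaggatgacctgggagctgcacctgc
Aldh1a1: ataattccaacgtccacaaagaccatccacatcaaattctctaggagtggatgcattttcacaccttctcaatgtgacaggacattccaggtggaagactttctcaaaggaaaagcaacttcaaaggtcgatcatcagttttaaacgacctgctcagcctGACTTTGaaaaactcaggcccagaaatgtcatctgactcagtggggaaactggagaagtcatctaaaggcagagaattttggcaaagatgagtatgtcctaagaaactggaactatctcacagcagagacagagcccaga
Enpp7: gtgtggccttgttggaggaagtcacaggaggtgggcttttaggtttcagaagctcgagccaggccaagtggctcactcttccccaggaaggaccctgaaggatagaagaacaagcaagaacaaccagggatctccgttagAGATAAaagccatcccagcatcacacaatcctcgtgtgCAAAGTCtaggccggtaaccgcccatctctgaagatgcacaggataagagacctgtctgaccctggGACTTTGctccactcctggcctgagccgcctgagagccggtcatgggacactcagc
Treh has 2 such HNF4 matches, 227 and 69 bases before the start, Aldh1a1 has 1 at 90 bases, and Enpp7 has 2 at 72 and 6 bases beside the GATA match at 110. Searched on both strands, CAAAGTC was in 10.1% of the 99 windows of positive genes, 6.22% of the 193 windows of negative genes and 4.09% of the 12782 windows of all tested genes. AGATAA was in 14.1%, 8.29% and 7.44% of these windows, and TTTATG, a CDX motif, in 5.05%, 11.9% and 7.06%. GTCTAGAC was in 0, 2 and 28 of them. None of the motifs searched contains another. These shares are a description without a test, and 44 of the 59 named genes had a window.

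The reverse order was seen in 2 antimicrobial genes of the villus base, which rose in proximal cKO and did not pass in the distal segment. Reg3b (chromosome 6, 78370657 to 78373466, plus strand), a lectin that kills bacteria, stood at 4466, 2249 and 4689 in WT proximal, 85843, 49747 and 68240.5 in WT distal, 76850.1, 52170.1 and 100789 in cKO proximal and 268102, 167358 and 39572 in cKO distal libraries. Proximal WT was the one low group. The distal genotypes overlapped through cKO distal 3 alone, while cKO distal 1 and 2 lay above all distal WT values. In cKO distal 3 mitochondrially encoded genes took 27.7% of reads, against 11.5% and 9.95% in cKO distal 1 and 2. This antimicrobial list summed to 7607 CPM there, against 27506 and 21974. Reg3b rose by 4.36 in proximal cKO (adjusted p = 0.00118), against 0.87 in the distal segment (adjusted p = 0.332; interaction -3.49, SE 0.78, adjusted p = 0.034). Duoxa2 (chromosome 2, 122298900 to 122302885, plus strand), which matures the epithelial oxidase DUOX2, had 5.26, 6.73 and 14 in WT proximal, 793, 307 and 390.0 in WT distal, 71.7, 32.8 and 95.1 in cKO proximal and 801, 378 and 231 in cKO distal libraries. It rose in proximal cKO by 2.78 and overlapped between the distal genotypes (interaction -2.93, SE 0.67, adjusted p = 0.0357). Of 16 measured genes of this list, 2 had a negative interaction and 0 a positive one (median -0.68). In the proximal segment 7 rose and 0 fell, and in the distal segment 4 rose and 2 fell. Reg3 genes share sequence, so the reads of Reg3b are uncertain. Both calls ended without any of WT proximal 1 and 2, WT distal 1 and 2, cKO proximal 1 and 3 and cKO distal 2. That of Reg3b also ended without cKO proximal 2 and that of Duoxa2 without cKO distal 3 (highest adjusted p = 0.117 and 0.121, each without cKO proximal 3). With voom weights the Duoxa2 call ended as well (adjusted p = 0.221), and with no replicate block both did (0.0817 for Reg3b and 0.0827 for Duoxa2). Scaled to epithelial genes, the list had 4 negative calls and a median of -1.20.

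Pyy, Sct and Tph1, genes of hormone-producing enteroendocrine cells, fell more in the proximal than in the distal segment. Pyy (chromosome 11, 102106676 to 102107832, minus strand), which encodes the satiety hormone peptide YY, stood at 276, 242 and 186 in WT proximal, 212, 214 and 383 in WT distal, 2.02, 2.12 and 6.52 in cKO proximal and 74.2, 60.6 and 89.3 in cKO distal libraries. WT overlapped between segments, whereas in cKO the proximal values, from 8 reads in all, lay far below the distal ones. It fell in both segments (-5.81 proximally and -1.80 distally, adjusted p = 1.16e-06 and 0.00368; interaction 4.02, SE 0.48, adjusted p = 0.00335). Sct, the secretin gene, had 2247, 1702 and 1189 in WT proximal, 603, 411 and 804 in WT distal, 84.8, 104 and 151 in cKO proximal and 161, 139 and 158 in cKO distal libraries. It fell in both (-3.90 and -1.93; interaction 1.97, SE 0.37, adjusted p = 0.0183). Tph1, the enzyme of serotonin synthesis in these cells, fell in both too (-2.99 and -1.22; interaction 1.77, adjusted p = 0.0488). Cck, the gene of cholecystokinin, rose in distal cKO from 74.3 ± 4.38 to 181 ± 27.7 and stood at 2762 ± 1229 in proximal WT and 1569 ± 586 in proximal cKO, a difference that did not pass (interaction 2.05, SE 0.38, adjusted p = 0.0171). These were the 4 called members among 27 measured, all positive (median 0.83). Scaled to epithelial genes, the median was 0.31 and 3 passed.

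The Pyy call held in all 12 fits that left out 1 library (highest adjusted p = 0.0151). The Cck call ended without cKO proximal 1 (0.0547), that of Sct without WT proximal 2, WT distal 2, cKO proximal 1 or cKO distal 1 (highest 0.0614). That of Tph1 held without WT proximal 3, WT distal 3 or cKO proximal 3 and ended without any other library (highest 0.128). Scaling to epithelial genes, voom weights, DESeq2 and the fit with no replicate block ended it too (adjusted p = 0.13, 0.0862, 0.0796 and 0.119), as did a covariate for the mitochondrial share (0.0581).

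Of 38 measured cell cycle genes, 24 fell and 0 rose in distal cKO, and in the proximal segment 0 passed in limma, edgeR without the block, DESeq2 or voom (4 at an unadjusted limma p under 0.05). Over all 17175 genes, 2030 fell and 2291 rose in distal cKO. All 38 had an interaction below 0, with a median of -0.91, and 2 of them passed. In WT 36 of them were higher distally, and in cKO 14 were. The list summed to 1084, 1246 and 945 CPM in WT distal libraries and to between 279 and 668 in the other 9. Mcm2 (chromosome 6, 88883474 to 88898780, minus strand), a subunit of the replicative helicase, stood at 129, 156 and 233 in WT proximal, 602, 787 and 493 in WT distal, 162, 135 and 171 in cKO proximal and 107, 219 and 221 in cKO distal libraries. Distal WT was the one high group (interaction -1.71, SE 0.39, adjusted p = 0.0357). Pcna, the sliding clamp of replication, had 924, 1081 and 1177 in WT proximal, 1289.5, 1374 and 1133 in WT distal, 1388, 1252 and 1447 in cKO proximal and 848, 917 and 971 in cKO distal libraries, with distal cKO lowest on average (interaction -0.84, SE 0.20, adjusted p = 0.0375). Both calls held in 3 of the 12 fits that left out 1 library (without WT proximal 3, WT distal 3 or cKO distal 3) and ended in the other 9 and in edgeR with fixed pairs (adjusted p = 0.0681 and 0.111), with voom weights (0.0683 and 0.0742) and with no replicate block (0.0826 and 0.0869). That of Pcna also ended with TMM factors (0.0511) and with a fixed replicate block in limma (0.0821). Scaled to epithelial genes, 5 members passed and the list median was -1.42. Genes of lymphoid follicles, whose B cells divide, were high in the same 3 libraries, as given below, and their part in this result was not tested.

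Among 20 Wnt target genes and 21 stem cell genes, 1 gene on both lists had a called interaction. Rnf43 (chromosome 11, 87662722 to 87735539, plus strand), a ubiquitin ligase that removes Wnt receptors from the surface, stood at 981, 1220.1 and 1391 in WT proximal, 181, 221 and 347 in WT distal, 523, 776 and 692 in cKO proximal and 398, 299.5 and 488 in cKO distal libraries. Its proximal value was lower and its distal value higher in cKO, and neither passed by itself (-0.86 and 0.69, adjusted p = 0.0509 and 0.0613; interaction 1.54, SE 0.32, adjusted p = 0.0269). The call ended without WT proximal 2, WT distal 2, cKO proximal 1 or 3, or cKO distal 1 or 3 (highest adjusted p = 0.0846) when scaled to epithelial genes (0.096), and with no replicate block (0.071). Axin2, a feedback inhibitor of the pathway, fell in both segments (-2.40 and -1.88), with an interaction of 0.52 (SE 0.45, adjusted p = 0.605). Ephb2, a receptor that sorts cells along the crypt, rose in both by nearly the same amount (1.70 and 1.75; interaction 0.05, SE 0.28, adjusted p = 0.952). For Tcf7, a transcription factor of the pathway that T cells also express, the interaction was -1.70 (SE 0.47, adjusted p = 0.0742).

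The negative interactions were led by genes of B cells and lymphoid follicles, most of which were higher in distal WT than in the other 3 groups. Pou2af1 (chromosome 9, 51213708 to 51240080, plus strand), a coactivator of immunoglobulin transcription, stood at 119, 116 and 360.0 in WT proximal, 1561, 2668 and 1679 in WT distal, 32.3, 53 and 23.3 in cKO proximal and 37.1, 19.9 and 73.4 in cKO distal libraries. The 3 distal WT values lay above all others, and the cKO segments overlapped. It fell in proximal and in distal cKO (-2.28 and -5.62, adjusted p = 0.0176 and 1.47e-05; interaction -3.33, SE 0.66, adjusted p = 0.0242). Of 21 measured B cell and plasma cell genes, 12 had a negative interaction and 0 a positive one (median -3.39). The number of negative calls was 1 with voom weights, 3 with no replicate block, 9 in edgeR with fixed pairs, 10 in DESeq2 and 16 when scaled to epithelial genes. In WT 18 of the 21 were higher distally, and in cKO 1 was. Between genotypes, 8 of the 21 fell and 0 rose in proximal cKO, and 18 fell and 2 rose in distal cKO.

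Distal WT was likewise highest for the B cell identity factor Pax5 (-3.92), the surface proteins CD20 (Ms4a1, -3.54) and CD79B (Cd79b, -3.47), and Tnfrsf13c (-3.44), the receptor of the survival factor BAFF. The same was true of the kinase gene Blk (-4), Mzb1 (-3.13), a chaperone of antibody secretion, and H2-Ob (-3.56), an MHC class II chaperone subunit of B cells. Dusp2 (-3.19), a phosphatase of activated lymphocytes, had a negative call too. All of these fell in distal cKO, while in proximal cKO Ms4a1, Tnfrsf13c and Mzb1 fell and Pax5, Cd79b, Blk, H2-Ob and Dusp2 did not pass. Of 11 genes of follicle stroma, chemokines and germinal centres, 4 had a negative and 0 a positive interaction (median -2.38; 2 negative with voom weights and 2 with no replicate block), all 11 fell in distal cKO, and 10 were higher distally in WT and 0 in cKO. The 4 were Mybl1 (-3.37) and Bcl6 (-1.48), transcription factors of germinal centre B cells, S1pr2 (-2.30), a receptor that holds these cells in the follicle, and Ltb (-2.15), the lymphotoxin that organises it. Spib (chromosome 7, 44525993 to 44532071, minus strand), a transcription factor of B cells and of the M cells above follicles, fell in both segments (-1.54 and -3.54; interaction -2, SE 0.34, adjusted p = 0.0115). Its values were 1232, 623 and 920.0 in WT proximal, 1515, 2446 and 1573 in WT distal, 329, 244 and 352 in cKO proximal and 169.5, 150.2 and 141 in cKO distal libraries, and it was the 1 called gene of 16 on the follicle-associated epithelium list. Cd2, which T and B cells carry, was the 1 called gene of 18 on the T cell list (-2.56). That list as a whole did not follow Cd2: 12 of its members had an interaction above 0 (median 0.33). H2-Ob was likewise the 1 called gene of 10 on the MHC class II list (median -0.24). By symbol, 34 of the 308 negative genes were immunoglobulin segments or constant genes, whose shared sequence leaves the reads of each uncertain, and 0 of the 126 positive genes were. Of the 434 called genes, 29 had 0 reads in all 3 cKO distal libraries and in no other whole group. For these 29 and for the immunoglobulin genes, the share over all genes tested was not counted.

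**Figure D3:**
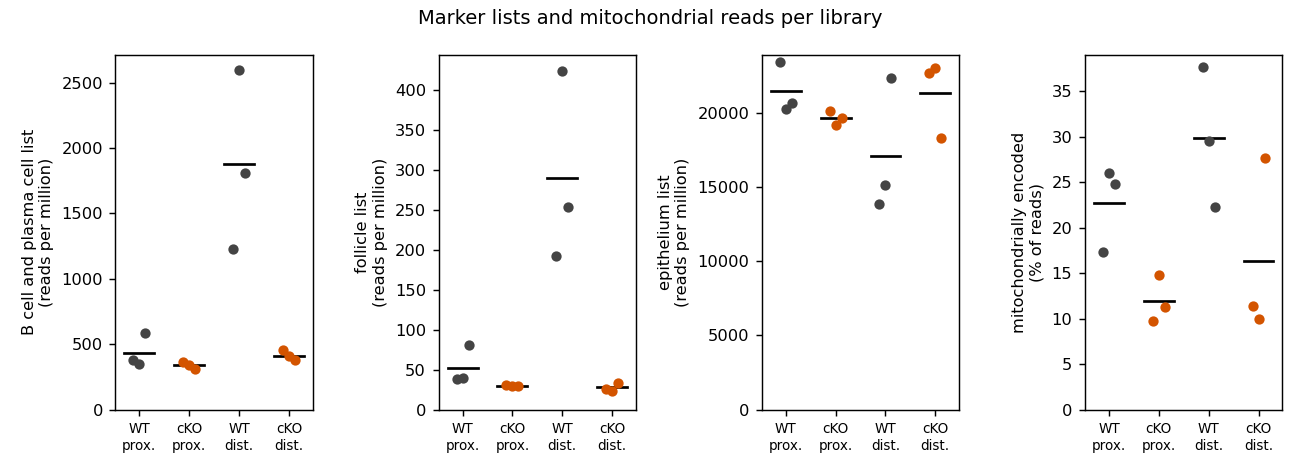
Summed CPM of the B cell and plasma cell list, the follicle list and the epithelium list, and the share of reads from mitochondrially encoded genes, for the 3 libraries of each group, with the group mean as a line. WT distal libraries hold 1228 to 2599 CPM of B cell and plasma cell genes, against 314 to 584 in the other 9.

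Per library, the B cell and plasma cell list summed to 1228, 2599 and 1807 CPM in WT distal 1, 2 and 3 and to between 314 and 584 elsewhere. The follicle list summed to 192, 424 and 253 in WT distal and to between 23.8 and 80.4 elsewhere. The labels do not say whether lymphoid follicles were included or avoided when tissue was taken, and the part of follicle content in the other interactions was not tested. The number of B cell genes with a call was 3 without WT proximal 1 or 2, 1 without WT distal 2, 2, 4 and 4 without cKO proximal 1, 2 and 3, and 3 without cKO distal 1 or 2. It was 11 to 16 without each of the others. Follicle genes passed in 0 to 7 of 11, with 0 without cKO proximal 3. The calls of Pax5, Ms4a1, Cd79b, Tnfrsf13c, H2-Ob, Ltb and Cd2 ended without any of WT proximal 1 and 2, WT distal 2, the 3 cKO proximal libraries and cKO distal 1 and 2 (highest adjusted p = 0.158). So did those of Pou2af1 and Bcl6, except that Pou2af1 held without cKO proximal 3 and Bcl6 without cKO distal 1, and those of H2-Ob and Cd2 also ended without cKO distal 3. Blk and Mybl1 ended without WT distal 2 or cKO proximal 3, Mzb1 without WT distal 2 or cKO proximal 1, and S1pr2 without cKO proximal 3. Dusp2 and Spib held in all 12 fits that left out 1 library (highest adjusted p = 0.0428), and the calls of Pax5, Ms4a1, Mybl1 and Cd2 ended in edgeR with fixed pairs (adjusted p between 0.052 and 0.0774). With voom weights the calls of Pax5, H2-Ob, Ms4a1, Cd79b, Tnfrsf13c, Pou2af1, Blk, Mzb1, Mybl1, Ltb and Cd2 ended (adjusted p between 0.0573 and 0.142), and in DESeq2 those of Pax5 (0.0898) and H2-Ob (0.0591). With no replicate block Pax5, H2-Ob, Ms4a1, Cd79b, Tnfrsf13c, Pou2af1, Bcl6, Ltb and Cd2 did not pass (between 0.0508 and 0.117).

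A small set of genes went in opposite directions in the segments. By the naming rule these were Mfge8, Blnk, Xylt1 and Tmsb10, each higher in proximal and lower in distal cKO. Mfge8 (chromosome 7, 79133768 to 79149060, minus strand), a secreted bridge between dying cells and phagocytes, stood at 200.0, 231 and 360.0 in WT proximal, 516, 821 and 881 in WT distal, 993, 763 and 1448 in cKO proximal and 348, 155 and 404 in cKO distal libraries. In each segment the genotypes did not overlap, and the gradient turned: the distal level was higher in WT (log2 difference 1.49) and lower in cKO (-1.88, adjusted p = 0.00199 and 0.000649). Mfge8 rose in proximal cKO (2.01) and fell in distal cKO (-1.36, adjusted p = 0.00309 and 0.00885; interaction -3.37, SE 0.42, adjusted p = 0.00373). Blnk (chromosome 19, 40928927 to 40994535, minus strand), an adaptor of B cell receptor signalling, had 498, 436 and 632 in WT proximal, 567, 1034 and 654 in WT distal, 913, 1052 and 902 in cKO proximal and 297, 289.6 and 437 in cKO distal libraries. It was higher in each proximal cKO library than in any proximal WT library and lower in each distal cKO library than in any distal WT library (0.89 and -1.12; interaction -2, SE 0.31, adjusted p = 0.00856). Xylt1, which starts the sugar chains of proteoglycans, had 45.3, 51.6 and 68.8 in WT proximal, 158, 305 and 157 in WT distal, 136, 98.5 and 148 in cKO proximal and 105, 94.6 and 57.4 in cKO distal libraries (interaction -2.43, SE 0.42, adjusted p = 0.0126). Tmsb10, an actin-binding peptide, went the same way by less (0.59 and -0.52; interaction -1.11, SE 0.20, adjusted p = 0.0171). Outside the rule, and named after their values were seen, the clone-named gene 2610301B20Rik went the same way (1.23 and -0.93), and the acyl-CoA synthetase gene Acsl6 went the other way (-2.29 and 1.85; interaction 4.14). Both had a mean below 2 log2 CPM, the limit for naming. Mfge8 and Blnk held in all 12 fits that left out 1 library (highest adjusted p = 0.0201 and 0.0289). The Xylt1 call ended without cKO proximal 3 (0.0508) and that of Tmsb10 without cKO proximal 1 or 3 (highest 0.0626).

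**Figure D4:**
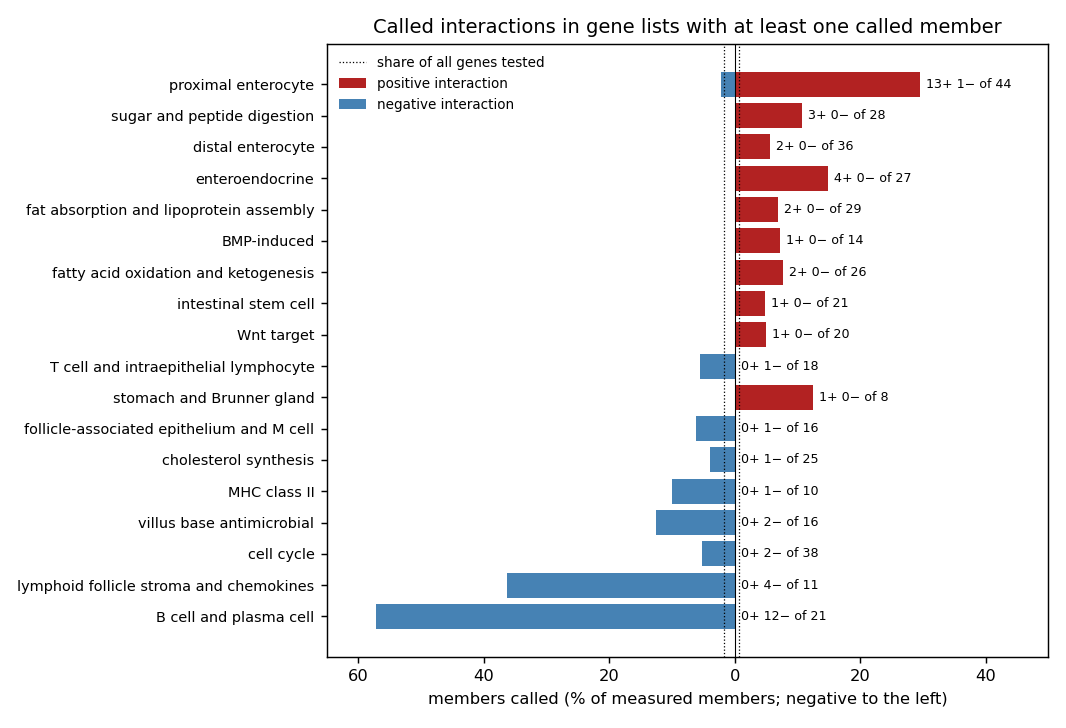
Share of measured members with a called interaction for the 18 gene lists with at least 1 such member, positive to the right in red and negative to the left in blue, with counts printed beside the bars. Dotted lines mark the share over all genes tested, 0.734% positive and 1.79% negative; the proximal enterocyte list reaches furthest to the right and the B cell and plasma cell list furthest to the left.

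For 18 of the 36 lists 0 members passed in limma. Of their 262 genes, 33 had an unadjusted p under 0.05, and 0 passed in edgeR without the block or with voom weights, 2 in edgeR with fixed pairs and 5 in DESeq2. The 18 included the lists of brush border structure, villus tip, Paneth, goblet and tuft cells, BMP ligands and antagonists, Hedgehog, Notch and interferon response genes. The others were the myeloid, fibroblast, smooth muscle, endothelial, neuronal, erythrocyte and pancreatic lists, mitochondrially encoded mRNA and the epithelium list. Of these, the myeloid list had 10 of 18 members lower in proximal and 8 in distal cKO (medians -1.72 and -1.17), with a median interaction of 0.41 that turned to -0.11 when scaled to epithelial genes. Of 22 tuft cell genes, 6 fell in the proximal and 8 in the distal segment. A gene that did not pass is not shown to have the same effect in both segments. In the stomach and Brunner gland list, Pgc, the pepsinogen C gene, passed with 0 reads in all 6 distal libraries, so no distal fold is given. Its proximal values were 74.6 ± 24 in WT and 9.19 ± 3.55 in cKO, and its call ended without cKO proximal 1 (adjusted p = 0.0553) and in edgeR with fixed pairs, voom and DESeq2 (adjusted p = 1, 0.13 and 0.411). In all, 383 of the 434 called genes were on none of the 36 lists.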

How the data were processed

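Total RNA was extracted with Trizol and made into libraries with the Ovation RNA-Seq V2 kit, per the labels' protocols. Reads were aligned to mm10 with STAR and analysed with DESeq2 1.28.1, per the submitters' processing notes. The STAR version, the annotation, the counting settings and the rule by which genes entered the table are not given in the sources used here. The authors deposited 1 table of 17175 genes, in which the sample values are a signal, namely read counts scaled per library. Of 206100 values, 206100 were whole multiples of a step of their column, within 0.001 steps, and each was taken as (reads + 1) divided by a size factor. The deposited log2 fold change, its standard error and the Wald statistic (a score), and the deposited p-value belong to 1 comparison of the authors and were not used. Of the gene identifiers, 17158 were in GENCODE M21.

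The test set for scaled values was used. All 12 libraries entered 1 limma model (version 3.58.1, R 4.3.3) of the 4 group means, fitted to log2(value + 1), with moderated variances that follow a mean-variance trend. The 6 genotype-and-number pairs entered as a block through duplicateCorrelation (correlation 0.195). P-values were adjusted by Benjamini-Hochberg over all genes, with a call at an adjusted p under 0.05. A filter (a value of at least 1 in 3 libraries) removed 0 genes. This scale understates the fold change of a gene with a low read number. Depth was 11242024 to 17722756 reads per library.

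Whether the numbers pair libraries was checked by correlating deviations from group means. Same-numbered libraries of the 2 segments had correlations of 0.314, 0.173 and 0.308 for WT pairs 1, 2 and 3. For the cKO pairs these were 0.158, 0.215 and 0.323, and the sample names in the labels share these numbers. Libraries of one genotype with different numbers had correlations from -0.376 to 0.0637. Deviations cancel out within a group, so values for same and for different numbers are not independent, and the check alone does not establish the pairing.

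Members and lists were chosen with earlier results of these data known. Named were Bmpr1a, and the 10 largest called interactions in each direction with a mean of at least 2 log2 CPM, without predicted, clone-named and immunoglobulin or T cell receptor genes. Also named were up to 4 called members of each of the 36 lists by smallest p, up to 4 genes called in opposite directions, and the 3 BMP-induced and 3 Wnt target genes with the smallest distal p. Some genes that the rule named are not reported here. Alternatives were edgeR 4.0.16, DESeq2 1.42.0 and voom on recovered reads, other scalings (TMM factors, epithelial genes), pseudocounts of 0.5 and 5, filters, fits with and without the block, the mitochondrial share as a covariate, and leaving out each library or pair. The procedure was tested on simulated data in which the numbers marked true pairs and only genes above a set mean changed, in distal cKO. That test does not cover uncertain pairing, outlying libraries or changes in genes with few reads. Promoter windows are from RefSeq (GRCm38.p6).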

Additional observations from a re-analysis of the deposited data

Results flagged for a closer look

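The genotype effect differed between segments, by the test of the difference itself, for 434 genes. In 6 of these the 2 segments passed in opposite directions. By the naming rule these included Mfge8, with an interaction of -3.37, Blnk with -2, Xylt1 with -2.43 and Tmsb10 with -1.11 (limma log2 differences). The proximal and distal log2 fold changes were 2.01 and -1.36 for Mfge8, 0.89 and -1.12 for Blnk, 1.20 and -1.23 for Xylt1, and 0.59 and -0.52 for Tmsb10.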

How the results depend on the processing

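With no replicate block, 99 genes passed for the interaction, 99 of them at least 2-fold, and with a fixed replicate block 460 did. In edgeR without the block it was 59 (59 at least 2-fold) and 413 with fixed pairs, with voom weights 217 (203 at least 2-fold), and in DESeq2, without the block, 595. With the mitochondrial share as a covariate 489 genes passed for the interaction, 362 for the genotype in the proximal and 1507 in the distal segment. The proximal count was 850 when scaled to epithelial genes and 2322 in DESeq2. The cause of these shifts was not tested. Leaving out 1 library or 1 pair gave 17 to 952 interactions (17 to 934 at least 2-fold), 467 to 1730 proximal and 2152 to 4971 distal genes. The lowest interaction count, 17, came without both libraries of WT pair 2. Neither Bmpr1a nor Ephb2 passed, and their sign turned when scaled to epithelial genes (-0.465 and -0.467) and in some fits without a library or pair (-0.174 to 0.247 and -0.151 to 0.209). Of the 59 named genes, 53 had a call in the main fit. Of these 53 calls, 34 ended in edgeR without the block, 28 with no replicate block, 24 without a variance trend and 21 with voom weights. No other named gene changed sign in any alternative run. Of the 434 genes, 88 had a library with 0 reads, where depth limits the value.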
